A study of Mus musculus with 8 samples.

Results

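The genes described here encode the oxidative phosphorylation system, the respiratory chain and ATP synthase of the mitochondrial inner membrane. They were taken by name from the counted genes, as those with the GENCODE M21 biotype protein-coding and a symbol starting with Ndufa, Ndufb, Ndufc, Ndufs, Ndufv, Sdha, Sdhb, Sdhc, Sdhd, Uqcr, Atp5, Cox4, Cox5, Cox6, Cox7, Cox8, or mt-. This gave 110 of 37263 counted genes, 97 encoded in the nucleus and 13 in mitochondrial DNA. RNA came from E14, a mouse ESC line of strain 129/Ola grown without feeders, first with LIF in medium with 15% fetal calf serum. The cells were then moved to serum-free NDiff 227 with LIF, the MEK inhibitor PD0325901, and the GSK3 inhibitor CHIR99021 (2i), and were collected 4, 16, 24, and 32 hr later. In a parallel series, 17 µM vitamin C (vitC) was added to the 2i medium. The sample labels give the inhibitors as 1 mM and 3 mM, where the study's methods give the same figures in µM. Each of the 8 combinations is 1 library, all 8 groups had grown in serum before and carried 2i during the course, and no serum library was used here.

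Oxidative phosphorylation passes electrons from NADH through complex I and from succinate through complex II to complex III and then complex IV, which reduces oxygen, and the proton gradient built on the way drives complex V, the ATP synthase. Complex II is wholly nuclear-encoded, whereas complexes I, III, IV, and V join many nuclear-encoded subunits with a few hydrophobic subunits made inside the mitochondrion. The mitochondrial genes are transcribed from both strands of a circular genome as long precursors, and nuclear and mitochondrial subunits are therefore made by separate machineries.

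Of the 97 nuclear members, 36 are subunits of complex I, 4 of complex II, 8 of complex III, 19 of complex IV with Ndufa4 and Ndufa4l2, and 16 of complex V. A further 12 are assembly factors that the name rule also takes (the Ndufaf and Sdhaf genes), and 2, Atp5s and Cox7a2l, are related proteins. A gene was tested where it reached at least 1 CPM (its count scaled to the library total, with edgeR's TMM factors) in at least 2 libraries. This held for 98 members, 91 nuclear and 7 mitochondrial, among 14931 genes. Symbols such as Atp5a1 and Atp5b are the M21 names for subunits alpha and beta of ATP synthase.

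The mitochondrial members can be read only in part from these tables. The files list 6 of the 13 at 0 counts in all 8 libraries, namely mt-Nd3, mt-Nd4l, mt-Co2, mt-Co3, mt-Atp6, and mt-Atp8, although their products are needed in every respiring cell. Reads were 50 bases long, so each transcript was cut into all its 50-base windows and these were looked up in the other M21 transcripts. For mt-Co2, all windows also occur elsewhere, chiefly in Gm28661, a nuclear pseudogene on chromosome 1. The shares were 99.9% for mt-Co3, 99.5% for mt-Atp6, 98.8% for mt-Nd4l, and 98% for mt-Nd3, with nuclear copies on the same chromosome as main partners. mt-Atp8, the remaining gene at 0, shared no window with another annotated transcript. Among the 7 genes with counts the share was 0.0% for mt-Nd1, mt-Cytb, and mt-Nd6, 7.6% for mt-Nd5, 8.2% for mt-Nd2, 51.1% for mt-Co1, and 62.2% for mt-Nd4. How the counting treated reads that fit several places was not given in the sources used here, and the part of such copies in the zeros was not tested. The 60 bases below open the M21 transcripts of a gene at 0 and of a counted gene, and those of mt-Co2 read the same in bases 1 to 60 of Gm28661.
mt-Co2: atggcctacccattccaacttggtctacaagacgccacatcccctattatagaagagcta
mt-Nd1: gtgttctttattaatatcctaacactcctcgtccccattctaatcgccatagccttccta

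**Figure D1:**
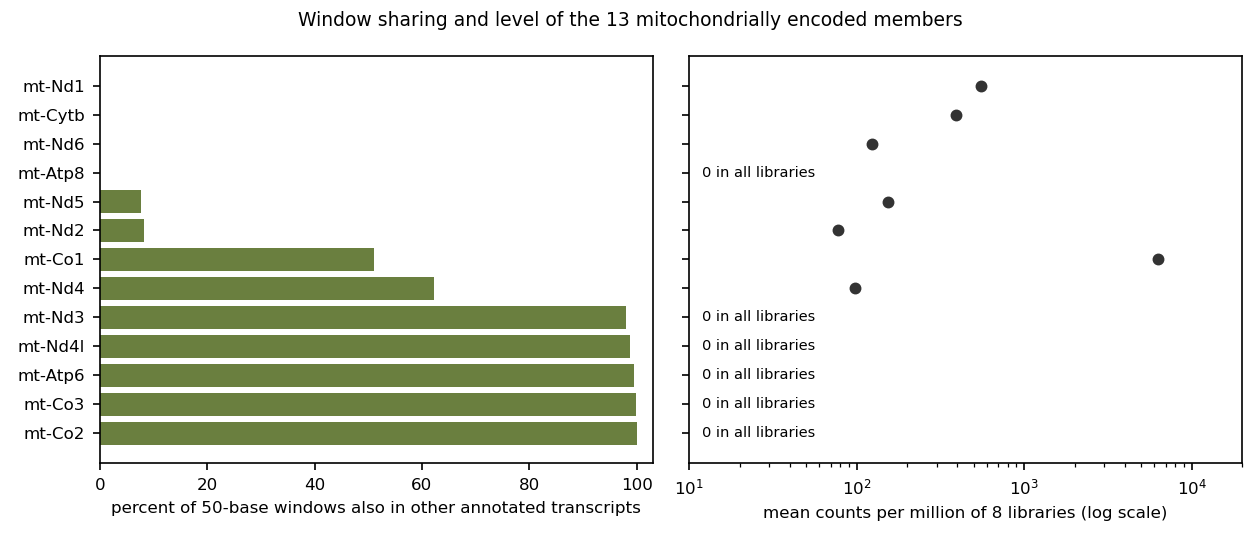
Left, percent of the 50-base windows of each of the 13 mitochondrially encoded members that also occur in other annotated transcripts. Right, mean CPM over the 8 libraries on a log scale, where 6 members are at 0 and 5 of these have 98% or more of their windows in nuclear copies.

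Some nuclear members also had few counts or share sequence with a relative. Ndufs5, a subunit of complex I, had 0 to 7 counts per library and shares 21.7% of its windows with the processed pseudogene BC002163, which had 41 to 169 counts. Atp5l, subunit g of ATP synthase, had 1 to 14 counts. Atp5g2, 1 of 3 genes for the c ring of ATP synthase, had 4 to 36 counts and shares 38.3% of its windows, chiefly with Gm10175. Several complex IV genes known from particular tissues were near or at 0, with Cox8b at 0 in all libraries, Cox8c at 0 or 1, Cox6a2 at 0 to 2, and Cox4i2 at 0 to 18. Whether reads were assigned by strand is not stated, so members that overlap other genes are also uncertain, among them Ndufaf2, of which 64.1% of windows lie in a lincRNA, and Sdhaf1 (69.0%). mt-Nd6 lies on the opposite strand to the other mitochondrial protein genes.

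The libraries held 12940716 to 18434932 counts in 2i and 4753528 to 13157570 with vitC, the lowest being vitC at 24 hr. The 4 and 24 hr libraries carry the number 8 in their names and the 16 and 32 hr libraries the number 7. This number was read as the sequencing lane, which the sample labels do not give. On that reading lane and time cannot be told apart for 16 or 32 hr against 4 hr. The contrasts of 24 hr against 4 hr, 32 hr against 16 hr, and vitC against 2i are then within a lane. Lars2 and 2 features that vary with it took 0.0277%, 0.206%, 5.92%, and 0.564% of the counts in 2i at 4, 16, 24, and 32 hr, and 0.0113%, 7.11%, 6.37%, and 4.21% with vitC. All 8 ESC markers checked (Pou5f1, Sox2, Nanog, and others) passed the filter, and their summed level was 1880 to 2350 CPM in 2i and 1980 to 2450 CPM with vitC. Single ESC markers moved both ways, with 2, 3, and 3 higher and 2, 1, and 2 lower at 16, 24, and 32 hr against 4 hr. Sox2 was higher and Pou5f1 lower each time. The 7 fibroblast markers, of which none was at 0 throughout and 6 passed the filter, summed to 122, 278, 374, and 298 CPM in 2i and to 106, 438, 685, and 422 CPM with vitC, most of it from Col1a1 and Col1a2. Of the 6 tested, 3 (Col1a1, Col1a2, and Pdgfrb) were higher at 16, 24, and 32 hr against 4 hr. Thy1 was lower at 32 hr, and Col3a1 and Dcn were called at no time. Of the other markers tested, 2 of 3 trophoblast, 1 of 1 neural, and 2 of 2 mesoderm genes were lower at 16, 24, and 32 hr against 4 hr, and 2 of 4 primitive endoderm genes were higher at 32 hr. Eomes, lower each time, is counted in both the trophoblast and the mesoderm list. In bulk RNA, fewer cells of a type and less RNA per cell cannot be told apart.

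On the level per length (CPM per kb of merged exons, RPKM), mt-Co1, the catalytic subunit of complex IV, was highest with a mean of 4077 RPKM. Among nuclear members, Atp5b was highest at 689 RPKM, followed by Atp5a1 at 473 RPKM and by Cox8a, a small complex IV subunit, at 352 RPKM. mt-Nd1 (575 RPKM) lay between Atp5b and Atp5a1, and mt-Cytb, the only complex III subunit made in the mitochondrion, lay just below Cox8a at 341 RPKM.

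The summed level of the nuclear members varied little. It was 14030, 11470, 12530, and 13850 CPM in 2i at 4, 16, 24, and 32 hr, and 13400, 10940, 10610, and 12490 CPM with vitC. The sums of both treatments were highest at 4 hr. Between the lowest and the highest library the sum differed 1.3-fold for complex I, 1.37-fold for complex II, 1.43-fold for complex III, 1.41-fold for complex IV, and 1.36-fold for complex V, and vitC at 24 hr was lowest for all of these but complex V, which was lowest in vitC at 16 hr.

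The summed mitochondrial level varied 3.21-fold. It was 4755, 6469, 5615, and 7409 CPM in 2i and 5559, 9552, 15260, and 6905 CPM with vitC. Only the vitC library at 24 hr held more counts on the 7 mitochondrial genes that could be counted than on the nuclear members. Of these counts 73.8% to 89.6% were on mt-Co1. The other 6 counted genes summed to 662, 746, 999, and 769 CPM in 2i and to 739, 2245, 3999, and 968 CPM with vitC. In percent of the nuclear member counts this was 4.72, 6.51, 7.97, and 5.55 in 2i and 5.52, 20.5, 37.7, and 7.75 with vitC. The vitC libraries at 16 and 24 hr stood apart from the other 6, and the 2 series lay close together at 4 hr. These 2 vitC libraries also had the fewest counts in total, 6969300 at 16 hr and 4753528 at 24 hr. The other libraries held 11893512 or more. Whether the low totals and the mitochondrial level are linked was not tested.

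**Figure D2:**
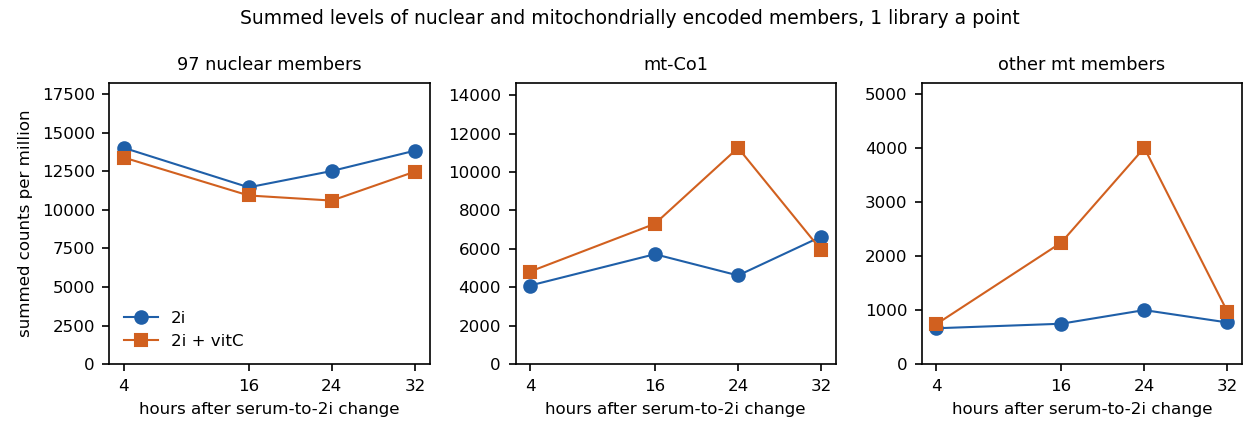
Summed CPM of the 97 nuclear members, of mt-Co1, and of the other mitochondrially encoded members against hours after the change to 2i, without vitC (circles) and with vitC (squares), 1 library a point. The nuclear sums stay between 10610 and 14030, whereas the other mitochondrial genes reach 2245 and 3999 in vitC at 16 and 24 hr against 662 to 999 in 2i.

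The first question was how the members changed over the first day in 2i, with 24 hr against 4 hr as the contrast within a lane. The test was edgeR's quasi-likelihood model with additive effects of time and treatment on all 8 libraries, fitted to all 14931 genes with Benjamini-Hochberg adjustment and a threshold of 0.05. Since each combination is 1 library, the error term (3 residual degrees of freedom) measures how far the 2i and vitC courses fail to run in parallel, not how replicate cultures vary. Of all genes tested, 11.5% rose and 8.98% fell between 4 and 24 hr.

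Mitochondrially encoded transcripts rose between 4 and 24 hr. Of the 7 tested, 6 passed, and their median log2 fold change was 1.52, against 0.01 for all genes and -0.18 for the 91 nuclear members. mt-Nd6 (complex I) was at 67.4, 63.5, 138, and 105 CPM in 2i and at 41.5, 165, 308, and 92.8 CPM with vitC. Between 4 and 24 hr this is a log2 fold change of 1.90 (standard error 0.386, edgeR adjusted p = 0.00549). mt-Nd1, the complex I subunit at which ubiquinone is reached, went through 267, 272, 371, and 242 CPM in 2i and 317, 898, 1664, and 370 CPM with vitC. It differed by 1.44 (adjusted p = 0.0132, edgeR). In each of these genes the vitC library at 24 hr was highest and the 2i libraries covered a much narrower range.

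mt-Nd2 rose by 1.62, mt-Cytb by 1.57, mt-Nd4 by 1.52, and mt-Nd5 by 1.33 on the log2 scale (edgeR adjusted p = 0.00571, 0.0104, 0.00572, and 0.0178). mt-Co1 was at 4092, 5723, 4616, and 6640 CPM in 2i and at 4820, 7306, 11260, and 5937 CPM with vitC. Its log2 fold change of 0.76 did not pass (adjusted p = 0.0543, edgeR). The direction was shared by the treatments but not the size. In 2i alone the log2 ratios of 24 to 4 hr ran from 0.39 for mt-Nd5 to 1.03 for mt-Nd6 among the 6 genes, and with vitC from 2.13 to 2.89 for the same 2 genes.

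The mitochondrial calls were lost with either of 2 vitC libraries left out, where calls over all genes also fell. Without the vitC library at 24 hr, or without that at 4 hr, 0 of the 7 passed, with medians of 0.84 and 0.95, whereas without the 2i library at 24 hr all 7 passed. Over all genes the calls went from 3061 to 748 without the former and to 1015 without the latter. The share of counts on Lars2 was above 5% in both 24 hr libraries and under 0.03% in both 4 hr libraries. With that share as a covariate the mitochondrial median was 1.21, and 0 of all genes tested passed at 24 hr, so the loss of these calls is not particular to them. DESeq2 called 3 of the 7. The fibroblast marker sum given above was also highest in vitC at 24 hr, and its part in the mitochondrial values was not tested.

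Nuclear members moved less, and in both directions. Between 4 and 24 hr 3 of 91 rose and 5 fell, below the shares of all genes, and 67 of 91 had a negative log2 fold change. By complex the medians were -0.16 for I, -0.18 for II, -0.24 for III, -0.11 for IV, -0.23 for V, and -0.21 for the assembly factors. Atp5b was at 3471, 2700, 2684, and 3351 CPM in 2i and 3305, 2400, 2556, and 2903 CPM with vitC. Its log2 fold change at 24 hr, -0.37, did not pass (adjusted p = 0.0815, edgeR).

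**Figure D3:**
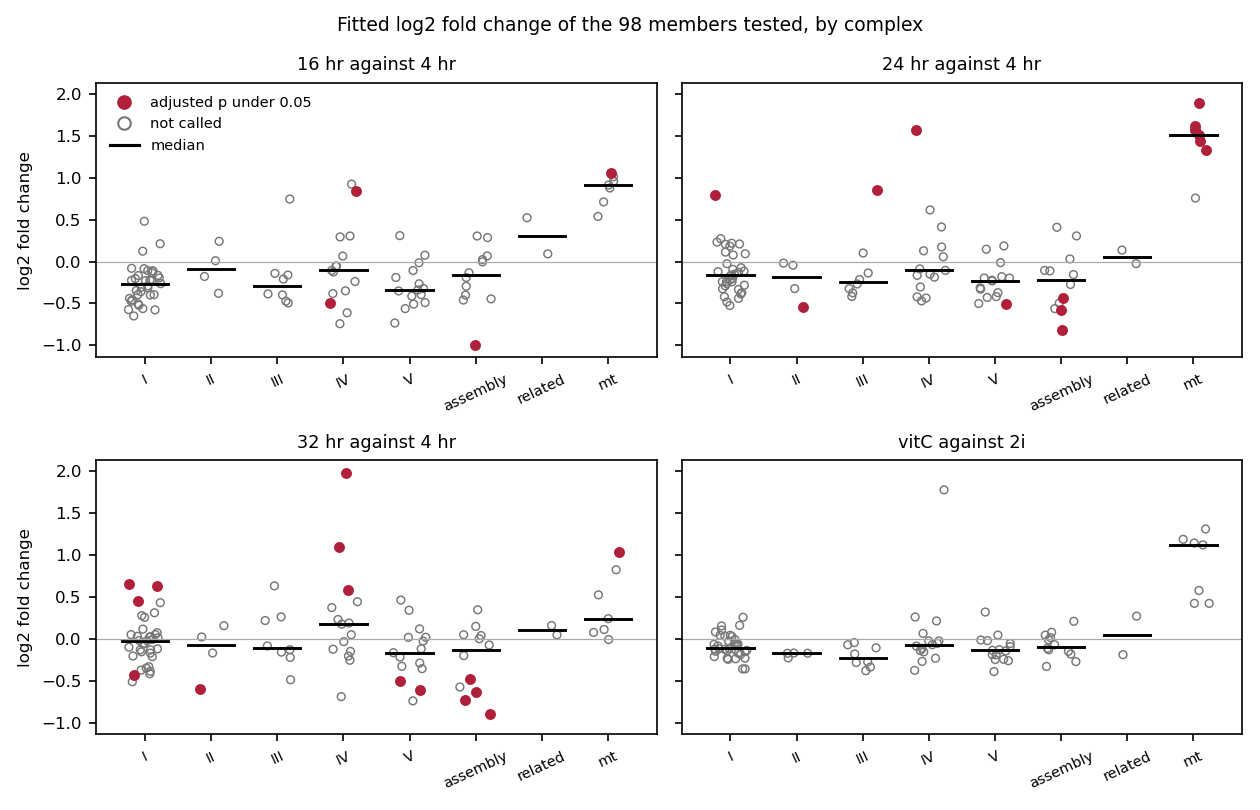
Fitted log2 fold change of the 98 members tested in 4 comparisons, by complex for the nuclear members (I to V, assembly factors, related proteins) and for the mitochondrially encoded members (mt). Filled points have an edgeR adjusted p under 0.05 and bars are medians, which for mt are 0.92, 1.52, 0.24, and 1.12 in the order 16, 24, and 32 hr against 4 hr and vitC against 2i.

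Cox7a1 had the largest rise of the nuclear members at 24 and 32 hr. It encodes the form of subunit VIIa of complex IV known from heart and skeletal muscle, while Cox7a2 encodes the form found widely. Cox7a1 was at 7.16, 11.5, 24.0, and 32.5 CPM in 2i and at 6.49, 13.3, 16.5, and 22.1 CPM with vitC. Within each series every later library was above the one before. Its log2 fold changes at 16, 24, and 32 hr were 0.85, 1.57, and 1.99 (standard errors 0.249, 0.248, and 0.243, adjusted p = 0.0369, 0.00139, and 0.000178, edgeR).

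Over the same course Cox7a2 was at 98.3, 129, 94.99, and 99.97 CPM in 2i and at 128, 90.6, 73.6, and 90.8 CPM with vitC, and passed in no comparison. Per length, Cox7a1 made up 11.4%, 13.5%, 30.8%, and 36.5% of both forms together in 2i, and 8.23%, 20.5%, 28.4%, and 30.0% with vitC. At 24 and 32 hr the calls on Cox7a1 held without any 1 of the 8 libraries and under all other settings except the Lars2 covariate, where the adjusted p was 0.645 at 24 hr and 0.148 at 32 hr (edgeR). At 24 hr that model called 0 genes in all, so the loss there cannot tell Cox7a1 from other genes. At 32 hr it called 158, and Cox7a1 was not among them.

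Cox6b2, the form of subunit VIb known from testis, was at 11.7, 13.1, 16.4, and 24.3 CPM in 2i and at 9.92, 13.7, 16.9, and 22.2 CPM with vitC. Both series rose with each time, and the log2 fold change at 32 hr was 1.10 (standard error 0.207, adjusted p = 0.00257, edgeR). Its common relative Cox6b1 was at 83.2 to 89.1 CPM in 2i and 67.9 to 98.05 CPM with vitC and passed in no comparison. Per length, Cox6b2 was 8.25% of the pair in 2i at 4 hr and 14.8% at 32 hr, and 7.23% and 12.6% with vitC.

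In the other paralog pairs the common form was far above its relative on the level per length. Cox4i1 was at 220.1 to 369 RPKM and Cox4i2, known from lung and from low oxygen, at 0 to 1.32 RPKM. Ndufa4 was at 82.6 to 119.8 RPKM and Ndufa4l2, known as a HIF1 target, at 0.542 to 2.54 RPKM. Cox7b was at 99.3 to 137 RPKM and Cox7b2 at 0.274 to 3.54 RPKM. In the c ring of ATP synthase, Atp5g3 was at 58.5 to 97.2 RPKM, Atp5g1 at 1.14 to 2.32 RPKM, and Atp5g2, with the shared windows given above, at 0.344 to 1.59 RPKM. Atp5g1 shares 11.1% of its windows and Atp5g3 0.0%, and their merged exons span 4912 and 2181 bases. The part of sharing and length in the gap between these genes was not tested.

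Apart from Cox7a1, the nuclear members that rose by 24 hr were Ndufa3 and Uqcrq. Ndufa3, a small subunit of complex I, was at 26.6, 34.3, 47.5, and 48.8 CPM in 2i and at 28.7, 43.5, 48.0, and 38.2 CPM with vitC. Both 4 hr libraries were below all the others, and the log2 fold change was 0.79 at 24 hr and 0.66 at 32 hr (adjusted p = 0.0114 and 0.0211, edgeR). Uqcrq, a small subunit of complex III, was at 66.7, 76.3, 118, and 70.3 CPM in 2i and at 41.1, 104, 75.5, and 95.1 CPM with vitC. It passed at 24 hr only (0.86, adjusted p = 0.0347, edgeR), and the 4 hr library was the lowest of each series. Its call was lost without the 2i library at 24 hr or the vitC library at 4 hr, and with the Lars2 covariate its log2 fold change was -0.91.

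Sdhd, which anchors complex II in the membrane and carries its heme with Sdhc, fell. It was at 183, 165, 142, and 136 CPM in 2i and at 197, 130, 120.1, and 117 CPM with vitC, each library below the earlier ones of its series. The log2 fold change was -0.54 at 24 hr and -0.59 at 32 hr (adjusted p = 0.0213 and 0.0113, edgeR). Its partners Sdha, the flavoprotein (242 to 317 CPM), and Sdhb, the iron-sulfur subunit (91.6 to 140.3 CPM), passed in no time comparison. Nor did Sdhc, which was at 75.6, 144, 97.65, and 84.5 CPM in 2i and at 104, 74.2, 79.1, and 77.1 CPM with vitC.

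Of the 12 assembly factors 1, 3, and 4 fell at 16, 24, and 32 hr and none rose, where 1, 2, and 4 of the 77 subunits tested and 7.24%, 8.98%, and 11.8% of all genes fell. The difference between these groups was not tested. Ndufaf6, needed for complex I assembly, was at 26.4, 14.9, 16.8, and 16.2 CPM in 2i and at 30.0, 13.4, 15.0, and 14.2 CPM with vitC. Both 4 hr libraries lay above all later ones, with log2 fold changes of -0.99, -0.82, and -0.90 at 16, 24, and 32 hr (adjusted p = 0.00786, 0.0159, and 0.00709, edgeR). Ndufaf4, also a complex I assembly factor, was at 66.0, 43.1, 45.6, and 40.0 CPM in 2i and at 67.3, 54.6, 43.1, and 40.5 CPM with vitC, falling by 0.58 at 24 hr and 0.73 at 32 hr on the log2 scale (adjusted p = 0.0225 and 0.00556, edgeR). Sdhaf2, which helps to insert the flavin of Sdha, differed by -0.43 and -0.49 (adjusted p = 0.0442 and 0.0223, edgeR). At 24 hr these calls, with those of Ndufa3, Sdhd, and Atp5h (a complex V subunit, -0.51, adjusted p = 0.0491, edgeR), were each lost when any 1 of the vitC libraries at 4 and 24 hr and the 2i library at 24 hr was left out.

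**Figure D4:**
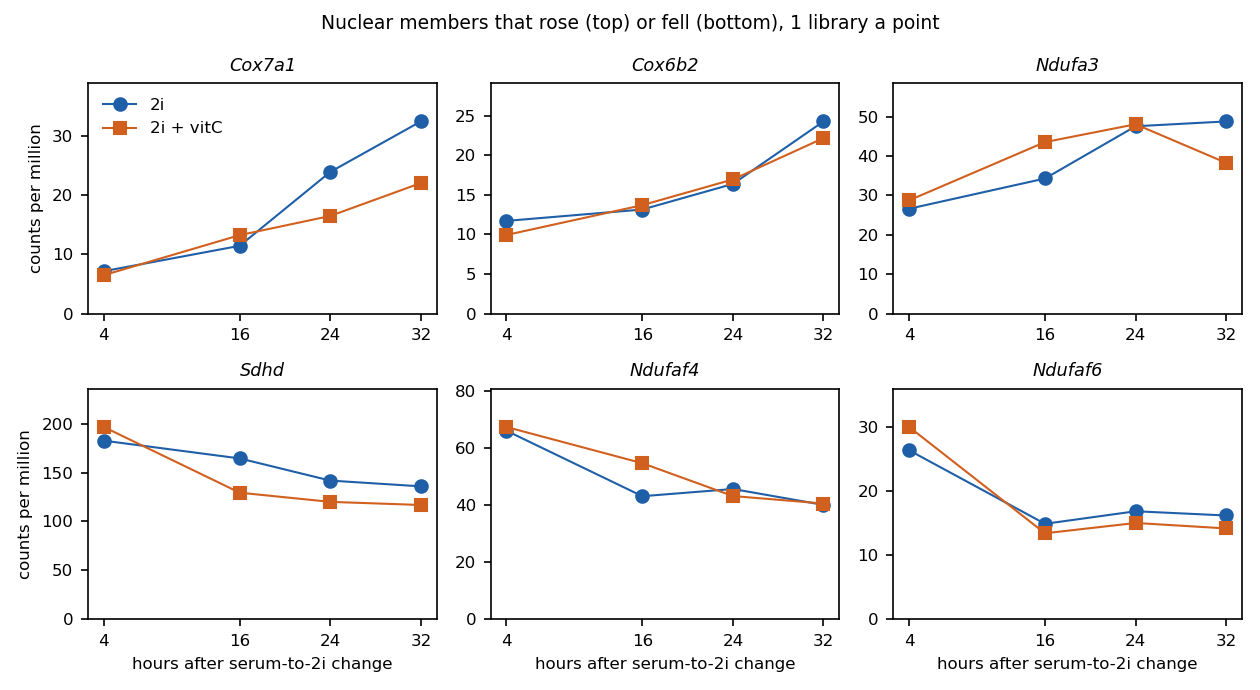
Levels in CPM of 3 nuclear members that rose (Cox7a1, Cox6b2, and Ndufa3) and 3 that fell (Sdhd, Ndufaf4, and Ndufaf6) against hours after the change to 2i, without vitC (circles) and with vitC (squares), 1 library a point. Cox7a1 goes from 7.16 to 32.5 in 2i and from 6.49 to 22.1 with vitC.

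Between 4 and 16 hr, where 9.16% of all genes rose and 7.24% fell, 4 members passed. mt-Nd2 (30.3 to 43.2 CPM in 2i, 42.9 to 136 CPM with vitC, log2 fold change 1.05, adjusted p = 0.0444, edgeR) and Cox7a1 rose, and Ndufaf6 and Cox4i1 fell. Cox4i1, a nuclear-encoded subunit of complex IV, went from 572 to 341 CPM in 2i and from 437 to 365 CPM with vitC (-0.50, adjusted p = 0.0418, edgeR). The nuclear members leaned downward, with 72 of 91 below 0 and a median of -0.23, and 35 of 35 complex I subunits did not pass. Without the vitC library at 4 hr 0 members passed, and without the vitC library at 16 hr 14 passed, all nuclear and lower. Cox4i1 held in only 1 of the 8 omissions and Cox7a1 and mt-Nd2 in 3 each, while Ndufaf6 was lost only without the vitC library at 4 hr. At 32 hr the nuclear median was -0.03, and 50 of 91 were below 0.

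Between 4 and 32 hr, where 13.5% of all genes rose and 11.8% fell, 7 members rose and 8 fell. Of complex I, Ndufa3, Ndufa6, and Ndufv3 rose and Ndufs1 fell. Ndufa6 was at 125 and 111 CPM at 4 hr and at 184 and 183 CPM at 32 hr in 2i and with vitC (0.64, adjusted p = 0.0255, edgeR). Ndufs1, the large iron-sulfur subunit, was at 243 and 247 CPM at 4 hr and at 181 and 182 CPM at 32 hr (-0.43, adjusted p = 0.0325, edgeR). In both genes the treatments gave nearly the same values at both times.

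Of complex IV, Cox6a1 rose beside Cox7a1 and Cox6b2, from 134 to 170 CPM in 2i and from 114 to 199 CPM with vitC (0.58, adjusted p = 0.016, edgeR). Of complex V, Atp5g3 went from 194 to 127 CPM in 2i and from 212 to 138 CPM with vitC (-0.61, adjusted p = 0.00833, edgeR), and Atp5f1, a subunit of the peripheral stalk, from 277 to 224 CPM and from 317 to 197 CPM (-0.50, adjusted p = 0.0235, edgeR). The 4 assembly factors that fell were Ndufaf1, Ndufaf4, Ndufaf6, and Sdhaf2. The Lars2 covariate left 0 of the 15 calls, with 158 calls over all genes in place of 3784. Of the nuclear calls only those of Cox7a1 and Cox6b2 held without any 1 library. The others were each lost without 1 or more of the 4 and 32 hr libraries (Ndufv3 also without a 24 hr library).

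Of the mitochondrial genes only mt-Nd5 passed at 32 hr against 4 hr, and their median was 0.24. mt-Nd5 was at 77.1 CPM at 4 hr and 167 CPM at 32 hr in 2i, and at 75.7 and 142 CPM with vitC (1.03, adjusted p = 0.0406, edgeR). mt-Nd1, by contrast, was at 242 and 370 CPM at 32 hr, against 267 and 317 CPM at 4 hr, a log2 fold change of -0.01. Without the 2i library at 32 hr the mitochondrial median was -0.33, and without the vitC library at 4 hr it was -0.08, so that its direction rests on single libraries.

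Between 16 and 32 hr, within the other lane, 0 members passed in edgeR, against 0.335% of all genes higher and 0.248% lower. At an unadjusted p under 0.05 there were 27 members (27.6%, against 14.3% of all genes), and DESeq2 called 4, all nuclear and higher, beside 133 higher and 110 lower among all genes. The nuclear median was 0.17, with 62 of 91 above 0, and the mitochondrial median was -0.72. In single libraries the latter was -0.17 in 2i and -1.28 with vitC, and mt-Co1, mt-Nd5, and mt-Nd6 were higher at 32 than at 16 hr in 2i (0.21, 0.53, and 0.73) and lower with vitC. Cox5b, a nuclear subunit of complex IV, took a different course in each treatment. A linear change of the vitC effect with hours was not called for it (unadjusted p = 0.572, edgeR). Such a term does not measure an effect that rises and then falls back. Cox5b was at 251, 95.8, 134, and 324 CPM in 2i but at 200, 178, 196, and 183 CPM with vitC, which gives log2 ratios of 32 to 16 hr of 1.76 and 0.04. This was not particular to Cox5b. In 2i and with vitC the ratios were 1.43 and -0.10 for Atp5mpl, 1.25 and -0.28 for Atp5k, and 1.01 and -0.22 for Uqcrh. The medians of the nuclear members were 0.25 and 0.12, and each ratio rests on single libraries.

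The second question was whether vitC altered the members. With time as a block, 0 of 98 members passed in edgeR and 0 in DESeq2, where 0.107% of all genes were higher and 0.0603% lower in edgeR and 231 genes higher and 66 lower in DESeq2. At an unadjusted p under 0.05 there were 17 members (17.3%), near the 13.8% of all genes. Of these 6 were mitochondrial and higher with vitC, and 11 of the 91 nuclear members (12.1%), all but Cox7b2 lower. The mitochondrial median was 1.12 and the nuclear median -0.12, against -0.02 for all genes. mt-Nd2 was at 30.3, 43.2, 47.8, and 30.9 CPM in 2i and at 42.9, 136, 241, and 50.8 CPM with vitC. It was higher at all 4 times, by 1.31 on the log2 scale (standard error 0.235, adjusted p = 0.0512, edgeR).

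mt-Nd4 (1.12), mt-Nd1 (1.19), and mt-Cytb (1.15 on the log2 scale) were also higher at all 4 times and did not pass (adjusted p = 0.0555, 0.0611, and 0.0741, edgeR). The median mitochondrial log2 ratio of vitC to 2i was 0.24, 1.48, 2.05, and 0.33 at 4, 16, 24, and 32 hr, where the nuclear medians were -0.06, 0.06, -0.30, and -0.07. These 4 genes passed when the 4 hr pair was left out, and also when every library was thinned to the depth of the shallowest, settings in which calls over all genes rose from 25 to 399 and 119. The other 3 mitochondrial genes were lower with vitC at 32 hr, with log2 ratios of -0.70 and -0.18 at 4 and 32 hr for mt-Nd6, -0.03 and -0.24 for mt-Nd5, and 0.24 and -0.16 for mt-Co1, and were higher at 16 and 24 hr. The Lars2 share was 7.11% with vitC and 0.206% in 2i at 16 hr but 6.37% and 5.92% at 24 hr, where the mitochondrial ratio was largest. With the share as a covariate the vitC median was 0.93.

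Set against the nuclear members of the same library, the mitochondrial sum was higher with vitC by 0.29, 0.63, 1.68, and 0.05 on the log2 scale at 4, 16, 24, and 32 hr. The mean was 0.66 ± 0.72 (SD, n = 4 pairs), with p = 0.12 in a two-sided exact sign-flip permutation test, which is 2 of 16 arrangements and the smallest p that 4 pairs allow. Without mt-Co1, left out after seeing the data, the mean was 1.15 ± 0.958 (SD, n = 4 pairs, exact p = 0.12), and for mt-Co1 alone it was 0.56 ± 0.67 (SD, n = 4 pairs, exact p = 0.25). The nuclear sum was lower with vitC at all 4 times, with a mean difference of -0.13 ± 0.0819 on the log2 scale (SD, n = 4 pairs, exact p = 0.12). Without the 24 hr pair the mean mitochondrial ratio was 0.32.

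Among nuclear members, complex III had the lowest median of the 5 complexes for vitC against 2i, -0.23, with 8 of 8 below 0. Complex II also had 4 of 4 below 0 (median -0.17). In single libraries the complex III medians were -0.17, -0.01, -0.42, and -0.10 at 4, 16, 24, and 32 hr. At 16 hr Uqcr11, Uqcrq, Uqcrh, and Uqcrb were higher with vitC and the other complex III members lower. Uqcrfs1, the Rieske iron-sulfur protein, was at 134, 150, 122, and 121 CPM in 2i and at 126, 91.1, 96.5, and 104 CPM with vitC, lower at each time (-0.34, unadjusted p = 0.0115, adjusted p = 0.203, edgeR). Uqcrc1, a core protein of complex III, differed by -0.28 (adjusted p = 0.206, edgeR). Cox8a was lower at each time, at 219, 256, 162, and 355 CPM in 2i and 208, 147, 157, and 238 CPM with vitC (-0.38, adjusted p = 0.212, edgeR). A linear change of the vitC effect with hours was called for 0 members in edgeR and in DESeq2, among 0% of all genes, and 0 members had an unadjusted p under 0.05, compared with 431 genes in all. A linear term does not measure an effect that rises and then falls back, as the median mitochondrial ratio of vitC to 2i did.

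Other genes that serve the same organelle were read from lists, beside all genes, of which 9.16%, 11.5%, and 13.5% were higher and 7.24%, 8.98%, and 11.8% lower at 16, 24, and 32 hr against 4 hr. Of 76 mitochondrial ribosomal protein genes tested, 19, 16, and 18 were lower at 16, 24, and 32 hr against 4 hr and 1, 1, and 2 higher, with medians of -0.35, -0.37, and -0.25. A fall was also seen outside the organelle. Of 81 cytosolic ribosomal protein genes 15, 11, and 10 were lower and 0, 0, and 2 higher, with medians of -0.39, -0.19, and -0.13. Of 31 genes for mitochondrial DNA expression and RNA handling, 4, 7, and 11 were lower, and 3 were higher at 32 hr. Slirp, which stabilises mitochondrial mRNAs, differed by -0.91, -0.73, and -0.77 (adjusted p = 0.00192, 0.00411, and 0.00202, edgeR), whereas its partner Lrpprc passed at no time. Tfam, the mitochondrial transcription and packaging factor, was lower at 32 hr (-0.50, adjusted p = 0.0229, edgeR) and Polrmt, the mitochondrial RNA polymerase, higher (0.54, adjusted p = 0.0314, edgeR). Of 42 electron carriers and assembly factors outside the name rule, 2, 5, and 6 were lower, near the shares of all genes, and 0, 0, and 1 higher. Among the pathways that feed or bypass the chain, 3, 4, and 6 of 23 glycolysis genes were higher at these times and 0, 3, and 2 lower, and 2 were lower with vitC (median -0.37). Of 17 TCA cycle genes 1 was higher and 1 lower at 16 hr, and none was called at 24 or 32 hr.

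Of 15 regulators of mitochondrial biogenesis tested, 1, 5, and 5 rose at 16, 24, and 32 hr and 1 fell each time, to be read against the same shares, which the single calls do not exceed. Pprc1, a relative of PGC-1, rose at each time (0.80, 1.11, and 0.55, adjusted p = 0.0129, 0.00177, and 0.043, edgeR) and was also higher with vitC (0.88, adjusted p = 0.0235, edgeR). Nrf1, Gabpa, and Yy1, transcription factors known to bind promoters of respiratory chain genes, passed in none of the 6 comparisons.

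Promoter windows of 300 bases, from 250 before to 50 after the start, were available for 80 of the 97 nuclear members in RefSeq (GRCm38.p6). Both strands were searched for GCGCNTGCG (a core of the NRF1 motif), CCGGAAG (a core of the ETS motif bound by GABP), and AAGATGGCG (a core of the YY1 motif). The letters of the NRF1 core can overlap themselves on the opposite strand, and overlapping matches were each counted. The NRF1 core was in 32.9% of the 85 member windows, in 8.6% of the 21263 windows of protein-coding genes, and in 6.3% of all 32851 windows. The ETS core was in 24.7%, 11.6%, and 8.9%, and the YY1 core in 9.4%, 1.8%, and 1.4%. At least 1 of the 3 was present in 46 of the 80 members (57.5%).

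Among members called between 4 and 32 hr that had a window, 5 of 6 that fell (all but Atp5f1) and 2 of 6 that rose held a core. The 4 windows below show members that rose without and with a core and a pair that fell with one, with the matched letters in capitals. Cox7a1, which rose most, had no match in its window (GRCm38.p6 chr7:30183921-30184220, plus strand). Cox6a1, which rose at 32 hr, had 3 NRF1 matches and 1 ETS match (chr5:115348909-115349208, minus strand). Sdhd, which fell, had 1 of each (chr9:50603800-50604099, minus strand), and Ndufaf4, which fell, had 2 NRF1 matches from both strands of a single stretch (chr4:24897833-24898132, plus strand). A match is a description of the letters and not a site of binding.
Cox7a1: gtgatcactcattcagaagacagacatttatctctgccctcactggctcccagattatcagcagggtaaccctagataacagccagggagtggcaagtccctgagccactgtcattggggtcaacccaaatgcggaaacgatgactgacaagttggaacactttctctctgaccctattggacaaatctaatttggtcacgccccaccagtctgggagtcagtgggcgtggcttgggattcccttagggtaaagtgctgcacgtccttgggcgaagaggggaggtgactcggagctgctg
Cox6a1: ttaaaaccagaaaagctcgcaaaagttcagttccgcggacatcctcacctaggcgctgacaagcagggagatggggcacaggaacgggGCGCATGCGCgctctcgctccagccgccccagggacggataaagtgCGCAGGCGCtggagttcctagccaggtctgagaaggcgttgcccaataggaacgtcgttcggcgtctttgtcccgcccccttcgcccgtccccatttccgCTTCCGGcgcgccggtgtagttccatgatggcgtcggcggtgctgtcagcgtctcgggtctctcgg
Sdhd: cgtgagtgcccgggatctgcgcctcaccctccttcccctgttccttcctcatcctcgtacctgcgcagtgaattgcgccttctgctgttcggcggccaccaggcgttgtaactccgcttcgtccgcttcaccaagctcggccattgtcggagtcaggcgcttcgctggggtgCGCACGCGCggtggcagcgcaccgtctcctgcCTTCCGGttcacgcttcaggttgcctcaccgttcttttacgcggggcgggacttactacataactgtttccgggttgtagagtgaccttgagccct
Ndufaf4: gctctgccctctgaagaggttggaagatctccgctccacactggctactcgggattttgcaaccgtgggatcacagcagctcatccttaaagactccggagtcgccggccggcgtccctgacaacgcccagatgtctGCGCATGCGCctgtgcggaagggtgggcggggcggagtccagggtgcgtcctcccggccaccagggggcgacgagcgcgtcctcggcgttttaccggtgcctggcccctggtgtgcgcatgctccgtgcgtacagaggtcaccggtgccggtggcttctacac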

How the data were processed

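RNA-seq was analysed in the 8 libraries described above, grouped by the treatment and time in their labels. Per the labels, total RNA was depleted of ribosomal RNA, made into TruSeq libraries, and sequenced as single 50 bp reads. The submitters' processing notes name GSNAP, HTSeq, and the builds NCBIM37 and mm9. The authors deposited raw counts per Ensembl gene for each library, without normalization. The handling of reads with several matches and of strand is not given in the sources used here. No reference of the counted build was used, and names, biotypes, merged exon lengths, and GC content came from GENCODE M21, in which 32604 of 37263 identifiers were found.

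The tested genes, which had 1 CPM or more in 2 or more libraries, were fitted in edgeR 4.0.16 (TMM, quasi-likelihood, Benjamini-Hochberg) in R 4.3.3. Ratios of single libraries are log2 CPM with a prior count of 2. The model with a linear change of the vitC effect left 2 residual degrees of freedom. The test was tried on simulated data of 14766 genes for 24 hr against 4 hr, in which it found 79% of 100 altered 2-fold and 99% of 100 altered 4-fold and made 5 false calls. Python 3.11.15, pandas 2.3.3, and matplotlib 3.10.9 were used for windows, promoters, and plots.

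The members named in full are the mitochondrial genes, members of a list of nuclear subunits from each complex, and the paralog sets. Named as well are the 3 called nuclear members with the largest rise and fall (mean CPM 5 or above), and the 3 with the highest level per length. Others were named because they passed a threshold. Cox5b's time course, the genes set beside it, Cox8a, and the regulators were named after their values were seen. The members and all lists were chosen with earlier results of these data known. The alternatives were DESeq2 1.42.0, RLE factors, scaling without Lars2 features and mitochondrial genes, no filter, an offset for GC content and length, thinning, models without the treatment term or time block, a Lars2 covariate, and the omission of each library or pair.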

Additional observations from a re-analysis of the deposited data

How the results depend on the processing

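The direction of the nuclear medians did not change under any setting tried in the 5 contrasts of time and vitC. The counts of members called moved more than 1.5-fold under several. Without the filter on low counts they were 24, 24, 23, and 16 for 16, 24, and 32 hr against 4 hr and 32 hr against 16 hr, and 10 for vitC, against 4, 14, 15, 0, and 0, while the calls over all genes became 3145, 3663, 4285, 589, and 690 from 2448, 3061, 3784, 87, and 25. With the Lars2 covariate they were 1, 0, 0, and 1 for the time contrasts, with 73, 0, 158, and 114 over all genes, and the mitochondrial median at 32 hr against 4 hr was -0.20. Without the treatment term they were 1 and 5 at 16 and 24 hr. The GC content and length offset gave 8 at 16 hr, DESeq2 4 for 32 hr against 16 hr, and thinning 4 for vitC. At 24 hr against 4 hr the offset turned the split over all genes from 1720 higher and 1341 lower to 1397 and 1715. Omitting each library in turn gave 0 to 14 calls at 16 hr, 1 to 18 at 24 hr, 3 to 20 at 32 hr, 0 to 8 for 32 hr against 16 hr, and, by pairs, 0 to 4 for vitC. At 16 hr the libraries that moved the count were 2i at 4, 24, and 32 hr (8, 7, and 1) and vitC at 4, 16, 24, and 32 hr (0, 14, 8, and 1). At 24 hr they were vitC at 4 and 24 hr (1 and 2), at 32 hr they were 2i at 32 hr and vitC at 4 and 32 hr (4, 3, and 6), and for 32 hr against 16 hr they were 2i at 4 hr and vitC at 4 and 16 hr (1, 1, and 8). The mitochondrial median at 32 hr against 4 hr ranged from -0.33 to 0.73. The causes were not tested. With a library omitted, the lone library of that time is assumed to vary like the others. Depth limits members with few counts, such as Cox7b2 (2 to 23 per library).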
